A study of Saccharomyces cerevisiae with 6 samples.

Results

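The genes described here encode the machinery that moves proteins from the endoplasmic reticulum (ER) through the Golgi to the cell surface in Saccharomyces cerevisiae. They were chosen by name and not by a cut on their values, though earlier results of these data were known. The rule took every probe row whose platform symbol is SEC, ERV, BET, BOS, SFT, RET or EMP followed by digits, apart from ERV1. SAR1, YPT1, SED5, KAR2 and IRE1 were added to these. The rule found 61 genes, 1 probe row each, among the 6226 features of the array (4060 named genes and 2166 unnamed probes). All 61 entered the test, since no filter on low values was applied. RET1 met the rule by its letters only, because it encodes a subunit of RNA polymerase III, and it was kept and is reported with the rest.

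A haploid flor strain was compared with a haploid wine strain, with 3 cultures and 3 one-colour arrays each. P3_Kan is the flor strain, of mating type alpha, and carries a KanMX cassette, per the labels, and K1_Kan is the wine strain, of mating type a, whose Kan is not explained there. Flor yeasts form a floating film on wine after fermentation and wine yeasts carry out the fermentation. Cultures grew with shaking in wine-like synthetic medium at 28 °C, where no film forms per the labels, and cells were taken when the optical density at 600 nm was 1. Each strain stands for 1 genetic background, and strain and mating type cannot be told apart. The labels call the cultures biological replicates, and replicate 2 of each strain also carries a technical replicate number of 2. They do not say how the cultures were started, so a p-value here reflects only how far these cultures varied.

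The markers of mating type went with the labels. All 6 a-specific genes measured were lower in the flor strain, by log2 changes of −4.79 to −1.37, and all 4 alpha-specific genes were higher, by 3.44 to 7.17. Arrays correlated at 0.997 to 0.998 within the wine strain, at 0.988 to 0.997 within the flor strain and at 0.937 to 0.950 between strains. Flor replicate 1 stood apart from the other flor arrays, and it was more than 0.3 away from their mean, on the log2 scale, in 20 of the 61 genes. That difference ran from −0.57 to 0.52 over these genes and from −1.32 to 1.27 over 4056 named genes. The share of all features beyond 0.3 was not counted.

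In yeast, secretory proteins enter the ER through the Sec61 channel, are folded there by chaperones such as Kar2, and leave in vesicles formed by the COPII coat. COPI vesicles carry escaped residents back from the Golgi. Tethers, Rab GTPases and SNAREs bring each vesicle to its target membrane and fuse it, and the exocyst does the tethering at the growing bud. The sec mutants of yeast, in which secretion stops at a defined stage, gave many of these genes their names.

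Values below are the authors' deposited log2 intensities, and a change is the flor mean minus the wine mean on that scale, so that 1 is a doubling. A gene was called when the adjusted p of limma, taken over all 6226 features by the method of Benjamini and Hochberg, was under 0.05, and ± is the SD of 3 arrays per strain. Levels of different probes are not compared with each other, because probes differ in brightness. A culture with fewer cells of a kind and one with less RNA per cell cannot be told apart.

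In the flor strain 13 of the 61 genes had a higher and 19 a lower level, and 29 did not pass. The 32 calls made up 52.5% of the genes, against 44.1% of features over the whole array. By direction, 20.5% of features were higher and 23.6% lower, and among these genes the shares were 21.3% and 31.1%. Counts by role and by list below are small and were not tested against these shares. The median change was 0.02, against −0.02 over all features. The changes were small, with a median size of 0.41 among the called genes against 0.49 among all called features. None of the 61 reached a log2 change of 1, a size that 6.41% of features passed with a call. A call with a change of at least 0.5 was made for 10 genes (16.4%, against 21.6% of features), 3 higher and 7 lower. The arrays of the strains did not overlap in 40 genes (65.6%), against 56.1% of features. The count of calls moved with the arrays used. Without wine replicate 2 there were 7 higher and 13 lower, without wine replicate 3 8 and 13, and without wine replicate 1 10 and 11. Without flor replicate 1 there were 14 and 24, without flor replicate 2 15 and 17, and without flor replicate 3 11 and 16. The counts over all features moved too. They were 966 higher and 1074 lower without wine replicate 2 and 1502 and 1777 without flor replicate 1, against 1276 and 1470 with all arrays. Some genes without a call are said below to pass with a single array left out. Each of them passed in no other such omission.

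**Figure D1:**
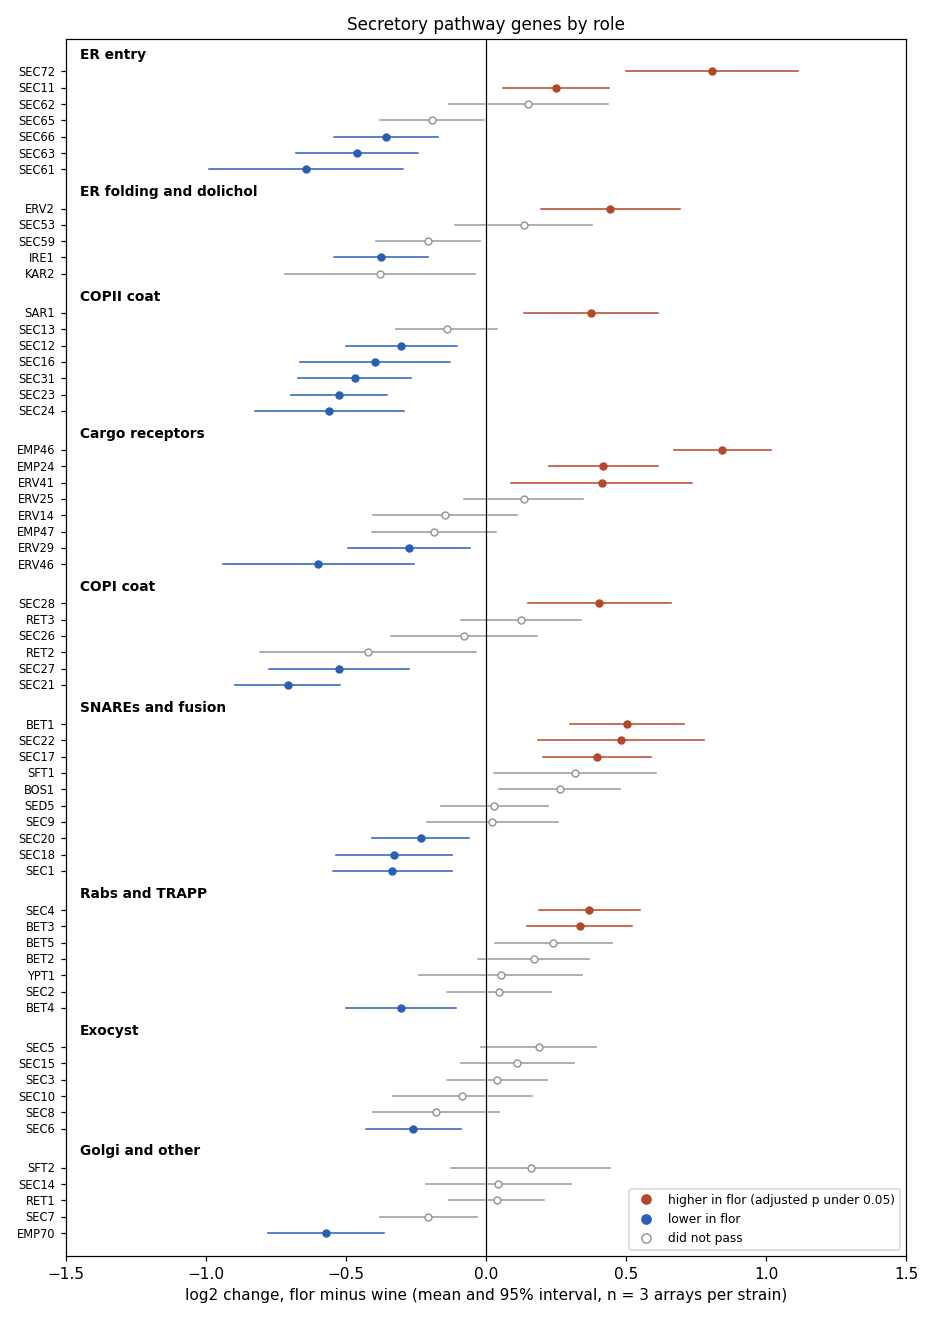
The log2 change (flor minus wine) of each of the 61 genes, with its 95% interval from limma, is grouped by the role of the gene product. Called genes are filled, in red where higher and in blue where lower in the flor strain. COPII genes other than SAR1 lie to the left of 0, and SEC72 and EMP46 have the highest changes.

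At the entry to the ER, the channel gene was lower in the flor strain while a peripheral subunit was the member of this group with the highest change. SEC61 encodes the channel itself. Its log2 intensities were 9.78, 10.30 and 10.41 in flor replicates 1 to 3 and 10.77, 10.90 and 10.74 in the wine replicates. All flor arrays lay below all wine arrays, and flor replicate 1 was the lowest. The level was 1.56-fold lower (95% interval 1.23 to 1.99; change −0.64, adjusted p = 0.0088). SEC72 encodes a subunit of the Sec63 complex, which passes finished chains to the channel after their synthesis. It stood at 10.99, 10.45 and 10.57 in the flor arrays and at 9.95, 9.89 and 9.77 in the wine arrays. The strains did not overlap, and SEC72 was 1.75-fold higher in flor (1.41 to 2.16; change 0.81, adjusted p = 0.0015).

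The other subunits of the Sec63 complex did not follow SEC72. SEC63, which recruits Kar2 to the channel through its J domain, was lower (−0.46, adjusted p = 0.0047), as was SEC66 (−0.36, adjusted p = 0.0077). SEC62, a further subunit, stood at 11.75 ± 0.26 in flor and 11.60 ± 0.04 in wine and did not pass (0.15, adjusted p = 0.36). The change of SEC72 exceeded that of SEC63 by 1.27 and that of SEC66 by 1.16. The within-array differences could not overlap between strains, because the arrays of each gene were already apart, in opposite directions. These pairs were picked after their values were seen and were not tested. SEC11, the catalytic subunit of signal peptidase, was higher (0.25, adjusted p = 0.038), but it did not pass without flor replicate 3 or any wine replicate (adjusted p = 0.072 to 0.12) or with slide as a block (0.060). SEC65, a protein of the signal recognition particle, had a change of −0.19 and did not pass (adjusted p = 0.088), although it did without flor replicate 1 (adjusted p = 0.018).

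In folding and quality control, the sensor gene IRE1 was lower and the chaperone gene KAR2 did not pass. IRE1 encodes the kinase and ribonuclease that senses unfolded protein in the ER and splices HAC1 messenger RNA. It gave 6.67, 6.66 and 6.66 in the flor arrays and 7.04, 6.97 and 7.10 in the wine arrays. The flor values were almost identical to each other and all lay below the wine values, and the level was 1.30-fold lower (1.15 to 1.46; adjusted p = 0.0036). KAR2, the ER Hsp70 and a classical target of that response, gave 11.92, 12.55 and 12.05 in flor and 12.56, 12.60 and 12.49 in wine. Flor replicate 2 fell within the wine range, and the change of −0.38 did not pass (adjusted p = 0.069; fold 1.30 lower, 1.03 to 1.64). Without flor replicate 2 the change was −0.57 (adjusted p = 0.0017). KAR2 did not pass with any other array left out (adjusted p = 0.10 to 0.19). ERV2, a thiol oxidase of the ER, was higher (0.44, adjusted p = 0.011), with an adjusted p of 0.051 without wine replicate 2. The genes here that supply glycosylation did not pass. SEC53, the phosphomannomutase, had a change of 0.13 (adjusted p = 0.35), and SEC59, the dolichol kinase, one of −0.21 (adjusted p = 0.069; 0.035 without flor replicate 1).

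The COPII coat genes divided between the small GTPase and the rest. Of 7 genes, 5 were lower in the flor strain, 1 was higher and 1 did not pass, and the median change was −0.40. Over all features 23.6% were lower and 20.5% higher. SEC23, the inner coat subunit that activates GTP hydrolysis by Sar1, had log2 intensities of 8.64, 8.77 and 8.72 in flor and 9.20, 9.23 and 9.27 in wine. The gap between the strains was far wider than the spread within either, and SEC23 was 1.44-fold lower (1.28 to 1.62; adjusted p = 0.00062). SEC24, its partner that binds cargo, gave 7.65, 8.07 and 8.05 against 8.47, 8.51 and 8.47. Flor replicate 1 was lowest, the strains did not overlap, and the fold was 1.47 lower (1.23 to 1.77; adjusted p = 0.0048). SEC31, of the outer coat, was 1.38-fold lower (1.20 to 1.59; adjusted p = 0.0028).

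The remaining COPII genes had smaller changes. SEC16, the scaffold of ER exit sites, was lower by a change of −0.40 (adjusted p = 0.024), and SEC12, which loads Sar1 with GTP, by −0.30 (adjusted p = 0.021). SEC16 did not pass without any one wine replicate (adjusted p = 0.050 to 0.10), and SEC12 did not when flor replicate 3, wine replicate 1 or wine replicate 3 was left out (0.072 to 0.093). SEC13, which sits in the outer coat and also in the nuclear pore, had a change of −0.14 and did not pass (adjusted p = 0.19). SAR1, the GTPase that starts coat assembly, gave 12.71, 12.40 and 12.34 in flor and 12.15, 12.11 and 12.08 in wine. All flor arrays were above all wine arrays, with flor replicate 1 the highest, and SAR1 was 1.30-fold higher (1.10 to 1.53; adjusted p = 0.019). That call was lost when any one wine array was left out (adjusted p = 0.051 to 0.068). The changes of SAR1 and of SEC23 differed by 0.90, with 0.75 on slide 1 and 0.98 on slide 2, a pair that was also picked after its values were seen.

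**Figure D2:**
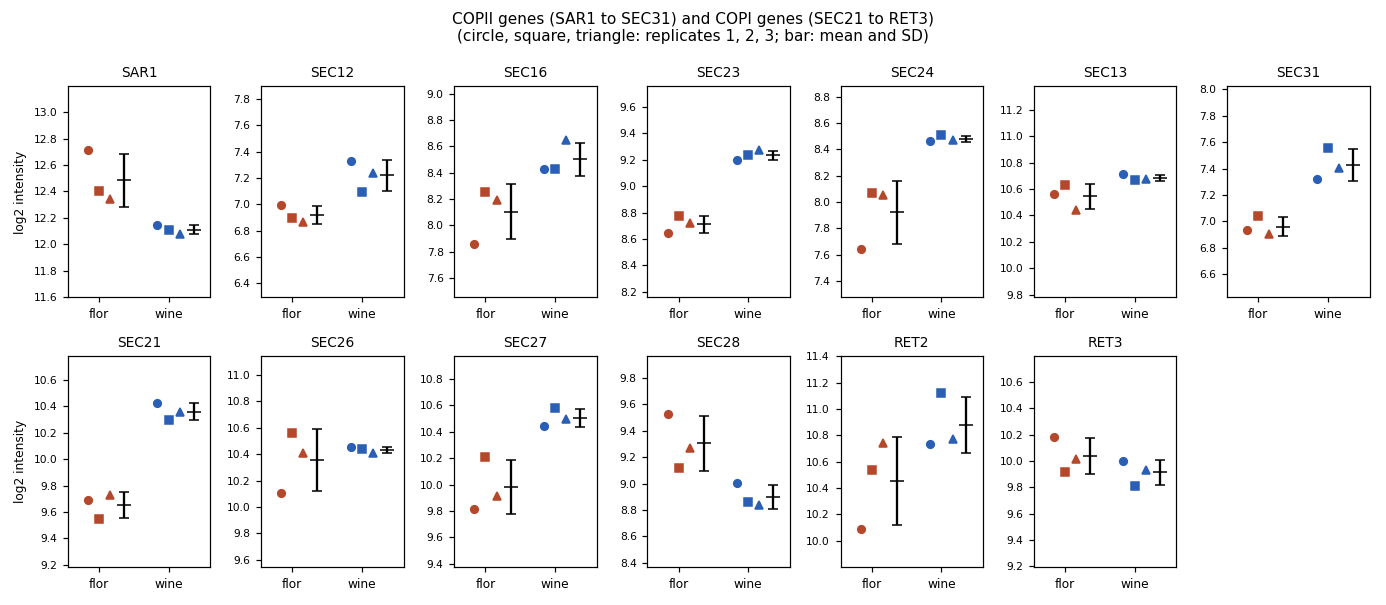
Log2 intensities of the 7 COPII genes and 6 COPI genes are plotted for each array, with flor in red, wine in blue and a symbol for each replicate number, and bars give mean and SD (n = 3). All panels have the same vertical span, so distances can be compared between genes while levels cannot. SEC23 and SEC21 show the strains well apart, and SEC26 and RET2 show flor replicate 1 below the other flor arrays.

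The COPI coat, which carries retrograde cargo, also had subunits that changed in opposite directions. Among 6 genes 2 were lower, 1 was higher and 3 did not pass (median change −0.25), where 23.6% of all features were lower and 20.5% higher. SEC21, the gamma subunit, had the lowest change of all 61 genes. It gave 9.69, 9.54 and 9.72 in the flor arrays against 10.42, 10.30 and 10.36 in the wine arrays. No array came near those of the other strain, and SEC21 was 1.63-fold lower in flor (1.43 to 1.86; change −0.71, adjusted p = 0.00019). SEC27, the beta-prime subunit, gave 9.82, 10.21 and 9.92 against 10.44, 10.58 and 10.50 and was 1.44-fold lower (1.21 to 1.71; adjusted p = 0.0047). SEC28, the epsilon subunit, was higher at 9.31 ± 0.21 against 8.90 ± 0.09 (change 0.40, adjusted p = 0.018), a call lost when wine replicate 2 or 3 was left out (adjusted p = 0.068 and 0.071). RET2, the delta subunit, had a change of −0.42 with overlapping arrays (adjusted p = 0.073), and passed without flor replicate 3 (−0.56, adjusted p = 0.033) and with slide as a block (adjusted p = 0.028). SEC26, the beta subunit (−0.08, adjusted p = 0.62), and RET3, the zeta subunit (0.13, adjusted p = 0.32), did not pass.

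Cargo receptors, which sort proteins into COPII vesicles and return with COPI, included genes at both ends of the range. Of 8, 3 were higher, 2 lower and 3 did not pass, where 20.5% of all features were higher and 23.6% lower. EMP46 and EMP47 are paralogs that encode lectin-like receptors for glycoproteins. EMP46 gave 9.50, 9.39 and 9.38 in flor and 8.55, 8.61 and 8.57 in wine, so that the strains were far apart. It had the highest change of the 61 genes, at 1.79-fold (1.59 to 2.02; change 0.84, adjusted p = 4e-05). EMP47 gave 8.76, 8.48 and 8.57 against 8.90, 8.71 and 8.76. The strains overlapped and it did not pass (−0.19, adjusted p = 0.16), though it did without flor replicate 1 (−0.27, adjusted p = 0.017). The change of EMP46 exceeded that of EMP47 by 1.03 (0.91 on slide 1 and 1.09 on slide 2), and the within-array differences did not overlap between strains (two-sided exact permutation p = 0.10, the smallest that 3 against 3 arrays allow). Paralogs can cross-hybridise, and the probe sequences were not examined here.

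ERV41 and ERV46 encode partners in a complex that retrieves ER residents from the Golgi, and their changes had opposite signs. ERV46 gave 10.15, 10.80 and 10.60 in flor and 11.03, 11.17 and 11.15 in wine. Flor replicate 1 was the lowest, the strains did not overlap, and ERV46 was 1.51-fold lower (1.19 to 1.92; adjusted p = 0.011). ERV41 was higher at 9.75 ± 0.31 against 9.33 ± 0.06 (0.41, adjusted p = 0.042), a call that was lost without flor replicate 3 or any wine replicate (adjusted p = 0.060 to 0.13) and with slide as a block (0.056). The changes of this pair, picked after its values were seen, differed by 1.01. The within-array difference had an SD of 0.64 in flor and 0.13 in wine. Without flor replicate 1 the changes were smaller, at 0.24 for ERV41 and −0.42 for ERV46. EMP24, of the p24 family, was higher in flor, at 12.25 ± 0.13 (0.42, adjusted p = 0.0043), and its p24 partner ERV25 had a change of 0.13 and did not pass (adjusted p = 0.28). ERV29, the receptor for the alpha-factor precursor and other soluble cargo, was lower (−0.27, adjusted p = 0.045), but not without flor replicate 2 or 3 or any wine replicate (adjusted p = 0.068 to 0.15) or with slide as a block (0.067). ERV14, the yeast cornichon that exports membrane proteins, had a change of −0.15 (adjusted p = 0.33), which was −0.26 without flor replicate 1 (adjusted p = 0.024).

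**Figure D3:**
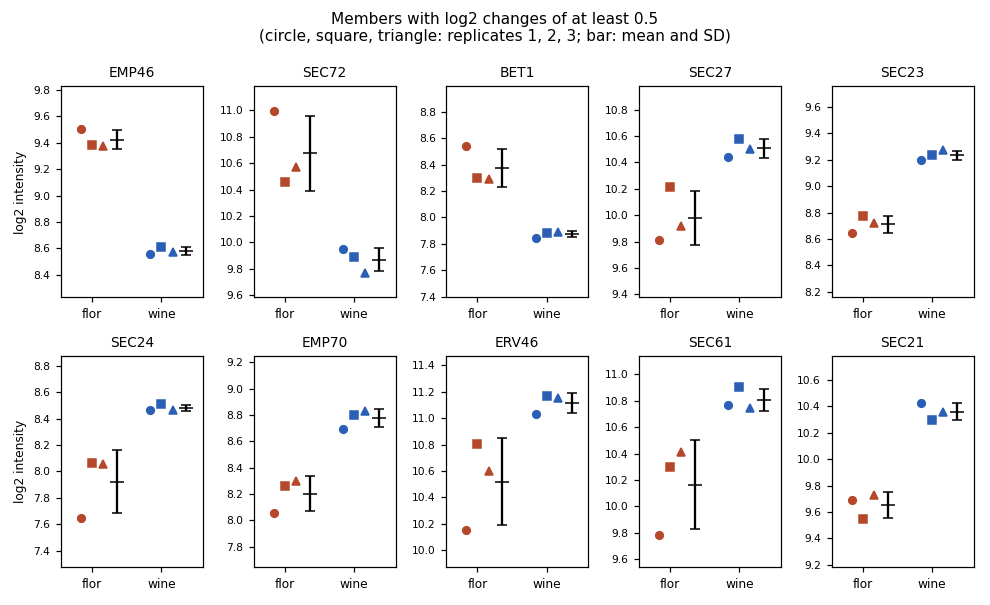
Log2 intensities by array are shown for the 10 genes that passed with a change of at least 0.5, ordered from the highest change (EMP46) to the lowest (SEC21), with symbols for replicate numbers and bars for mean and SD (n = 3). Flor arrays are in red and wine arrays in blue, and no panel shows overlap. Flor replicate 1 is the flor array farthest from the wine mean in 9 of the 10 panels, all but SEC21. These genes were picked by the size of their change, and the share over all features was not counted.

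Among the SNAREs and fusion factors, 3 of 10 genes were higher, 3 lower and 4 did not pass, with a median change of 0.15. Over all features 20.5% were higher and 23.6% lower. BET1, a SNARE of ER to Golgi vesicles, gave 8.54, 8.30 and 8.29 in flor and 7.85, 7.88 and 7.89 in wine. The wine arrays were tightly grouped below every flor array, and BET1 was 1.42-fold higher (1.23 to 1.63; adjusted p = 0.0020). SEC22, which joins the same SNARE bundle, was higher (0.48, adjusted p = 0.016), though not when wine replicate 2 or 3 was left out (adjusted p = 0.064 and 0.067). The other SNAREs of that bundle did not pass. BOS1 had a change of 0.26 (adjusted p = 0.051), with 0.33 without flor replicate 2 (adjusted p = 0.029). BOS1 did not pass with any other array left out (adjusted p = 0.069 to 0.17). SED5, the Golgi syntaxin, gave 7.42, 7.65 and 7.59 in flor and 7.48, 7.55 and 7.54 in wine. Its arrays overlapped fully (0.03, adjusted p = 0.81; 95% interval of flor over wine 0.894 to 1.17).

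SFT1, a SNARE within the Golgi, had a change of 0.32 without a call (adjusted p = 0.071), and passed without flor replicate 2 (0.41, adjusted p = 0.032). It did not pass with any other array left out (adjusted p = 0.077 to 0.19). SEC9, a SNARE of the plasma membrane, had a change of 0.02 (adjusted p = 0.88). SEC20, a SNARE of Golgi to ER traffic, was lower (−0.23, adjusted p = 0.034), but not without flor replicate 2 or 3 or any wine replicate (adjusted p = 0.064 to 0.13) or with slide as a block (0.054). The 2 proteins that take apart used SNARE bundles, Sec18 (the yeast NSF) and its adaptor Sec17, had transcripts that changed in opposite directions. SEC18 gave 8.94, 8.93 and 9.18 in flor and 9.36, 9.39 and 9.29 in wine. All flor arrays were lower (1.25-fold, 1.09 to 1.45; adjusted p = 0.018), and the call was lost when flor replicate 2, wine replicate 1 or wine replicate 2 was left out (adjusted p = 0.052 to 0.070). SEC17 was 1.32-fold higher, at 11.76 ± 0.10 against 11.36 ± 0.08 (adjusted p = 0.0052). SEC1, the regulator of fusion at the plasma membrane, was lower (−0.33, adjusted p = 0.018), though not without any one wine replicate (0.051 to 0.075). Its signal was among the lowest on the array, at 6.11 ± 0.15 and 6.44 ± 0.05, where background can hide part of a change.

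The Rab GTPases that act at the start and at the end of the route differed in their results. YPT1, the Rab of ER to Golgi traffic, gave 13.19, 12.80 and 12.66 in flor and 12.87, 12.82 and 12.80 in wine. The wine arrays lay inside the flor range (0.05, adjusted p = 0.77; 95% interval of flor over wine 0.848 to 1.27). SEC4, the Rab of vesicles bound for the cell surface, gave 11.72, 11.57 and 11.61 against 11.23, 11.33 and 11.23. The strains did not overlap, and SEC4 was 1.29-fold higher (1.14 to 1.46; adjusted p = 0.0056). Whether the changes of YPT1 and SEC4 differ was not tested. SEC2, the exchange factor of Sec4, had a change of 0.05 (adjusted p = 0.69).

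The genes for the enzyme that attaches lipid anchors to Rabs gave 1 call. BET4, its alpha subunit, was lower (−0.30, adjusted p = 0.019), but not when flor replicate 3 or wine replicate 1 was left out (adjusted p = 0.071 and 0.088), and BET2, its beta subunit, had a change of 0.17 (adjusted p = 0.15). Of the small TRAPP tether subunits, BET3 was higher (0.33, adjusted p = 0.011) and BET5 had a change of 0.24 and did not pass (adjusted p = 0.062). In the exocyst, 1 of 6 genes passed, against 44.1% of all features. SEC6 was lower (−0.26, adjusted p = 0.020), though not without any one wine replicate (0.054 to 0.076). The changes of the other exocyst genes were 0.19 for SEC5, 0.11 for SEC15, 0.04 for SEC3, −0.09 for SEC10 and −0.18 for SEC8, with adjusted p of 0.13 to 0.72. SEC5 passed without flor replicate 1 (0.26, adjusted p = 0.016).

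The last 5 genes act at the Golgi or outside the route, and 1 of them passed. EMP70, a membrane protein of the TM9 family found in endosomes, gave 8.05, 8.26 and 8.30 in flor and 8.70, 8.80 and 8.83 in wine. The strains were well separated, and EMP70 was 1.49-fold lower (1.29 to 1.71; adjusted p = 0.0011). SEC7, the exchange factor of Arf GTPases at the Golgi, had a change of −0.21 (adjusted p = 0.057; 0.038 without flor replicate 1). SEC14, the lipid transfer protein of the Golgi, had a change of 0.04 (adjusted p = 0.78), and SFT2, a Golgi membrane protein, one of 0.16 (adjusted p = 0.34). RET1, the polymerase subunit, had a change of 0.04 (adjusted p = 0.72).

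The changes went with gene length, which the choice of members had not used. Length here runs from start to stop codon in the R64 reference and includes introns (in 5 of the 61 genes it is not a multiple of 3). Of the 17 genes of up to 750 base pairs, 9 were higher and 1, SEC66, was lower in flor. Of the 25 genes over 1500 base pairs, 0 were higher and 12 lower by limma. Among all named genes 28.7% of the shorter class were higher and 13.5% lower, and 13.3% of the longer class were higher and 33.7% lower. The Spearman correlation between length and change was −0.60 over the 61 genes and −0.23 over 4056 named genes, all measured on the same 6 arrays. Single arrays also differed from the others of their strain along length. The difference of flor replicate 1 from the mean of the other flor arrays correlated with length at −0.55 over the 61 genes and at −0.44 over the named genes. The same coefficients were 0.41 and 0.34 for flor replicate 2, 0.41 and 0.41 for flor replicate 3, −0.40 and −0.35 for wine replicate 1, 0.26 and 0.21 for wine replicate 2 and 0.10 and 0.15 for wine replicate 3. The arrays of a strain share their means, so these values are not independent. Without flor replicate 1, the change and length correlated at −0.51 and −0.13. Some partners with opposite changes also differed in length. SAR1 (712 base pairs), SEC72 (582), SEC28 (891) and SEC17 (995) were shorter than SEC23 (2307), SEC63 (1992), SEC21 (2808) and SEC18 (2277), respectively. SEC72 and SEC66 (621), ERV41 (1152) and ERV46 (1248), and EMP46 (1335) and EMP47 (1338) were close in length. Whether the differences between partners go with length was not tested.

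**Figure D4:**
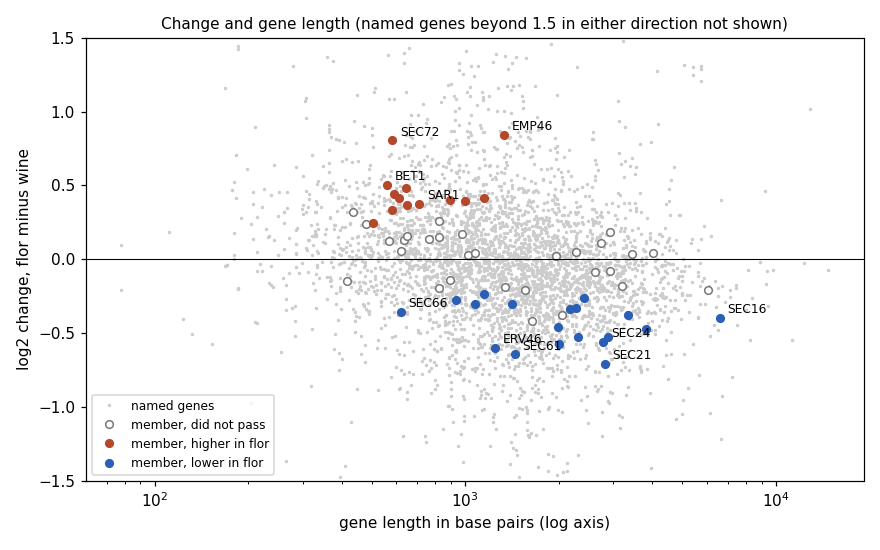
The log2 change (flor minus wine) is plotted against gene length on a log axis for named genes (grey) and for the 61 secretory genes, filled where called. The red points (higher in flor) lie at the short end and the blue points (lower) mostly at the long end. Of the 19 blue points, 12 lie above 1500 base pairs. EMP46, SEC66, ERV46 and SEC61 are among the genes away from that order.

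With the length trend removed from every array by loess, 11 of the 61 genes were higher (20.1% of all features) and 21 lower (25.6% of all features). Only the 4056 named genes with a length were adjusted, so the shares over all features include probes left as they were. Of the 32 calls, 28 were kept in the same direction. The calls that were lost were those of SEC11 (0.05, adjusted p = 0.63), ERV2 (0.28, 0.17), BET3 (0.16, 0.15) and SEC6 (−0.17, 0.065). SEC65 (−0.29, adjusted p = 0.0088), SEC13 (−0.22, 0.048), ERV14 (−0.38, 0.0030) and SEC5 (0.27, 0.025) passed after the removal and not before it. SEC72 (0.63), EMP46 (0.84), SAR1 (0.25) and SEC4 (0.22) stayed higher, and SEC21 (−0.62), SEC61 (−0.63), SEC23 (−0.44), SEC24 (−0.47) and IRE1 (−0.30) stayed lower. COPII then had 6 genes lower and 1, SAR1, higher. Length and change still correlated after the removal, at a Spearman coefficient of −0.35 over the 61 genes and −0.25 over the 148 further genes of the route, against 0.01 over the named genes. The removal thus took the trend out of the named genes as a whole and left part of it in these genes. This correlation is over the set, and whether any single kept call goes with length was not tested.

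Beyond the genes of the rule, 148 further genes of the secretory route were measured in 8 lists. Of these, 28 were higher, 31 lower and 89 did not pass, with a median change of −0.05. The share called was 39.9% (18.9% higher and 20.9% lower), against 44.1% of all features (20.5% and 23.6%), so these genes were not called more often than features in general. In ER translocation and signal recognition, 5 of 17 were higher and 3 lower. SND3, annotated as PHO88 and part of a targeting route into the ER, was higher by 0.70 and the signal peptidase genes SPC1 and SPC2 by 0.63 and 0.55. SSH1, which encodes the channel related to Sec61, was lower by a change of −0.72, so that both channel genes were lower.

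In ER folding and the unfolded protein response, 1 of 18 was higher and 5 lower. HAC1, the transcription factor whose messenger Ire1 splices, was lower (−0.56), as was PTC2, a phosphatase that acts on Ire1 (−0.79). The glucosidase genes ROT2 (−0.51) and CWH41 (−0.50), which trim N-glycans, were lower too. The array signal does not separate spliced from unspliced HAC1. In ER-associated degradation, 0 of 14 were higher and 2 were lower by limma, UBX2 (annotated as SEL1, −0.63) and the ubiquitin ligase gene SSM4 (−0.36).

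Among COPII adaptors and the p24 family, 4 of 19 were higher and 4 lower. SED4, a relative of SEC12 that acts in COPII assembly, was 2.09-fold lower (−1.07, adjusted p = 4.1e-05). SFB2, a Sec24 paralog, was lower by −0.44 and GSF2, which helps hexose transporters leave the ER, by −0.58, while the p24 gene ERP4 was higher (0.59). In the COPI and ARF list, 4 of 18 were higher and 4 lower. The Arf GTPase-activating protein genes went both ways, with AGE2 2.28-fold higher (1.19, adjusted p = 1.4e-05) and GCS1 (−0.60) and GLO3 (−0.56) lower. UFE1, the syntaxin of the ER, was 1.79-fold higher (0.84). COP1, the alpha subunit of the COPI coat, had a change of −0.20 and did not pass.

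Of 20 further tethers, 3 were higher and 5 lower. COG4 (−0.52), COG3 (−0.46) and TRS120 (−0.43), large subunits of tethers at the Golgi, were lower, and GRH1, the yeast GRASP protein, was higher (0.46). Of 21 further SNAREs and Rab factors, 6 were higher and 2 lower. GOS1, a Golgi SNARE, was higher by 0.82, MSO1, a partner of Sec1, by 0.70 and the vesicle SNARE gene SNC1 by 0.52, while SSO2, a syntaxin of the plasma membrane, was lower (−0.67). In the late secretory list, 5 of 21 were higher and 6 lower. APS1, the small subunit of the AP-1 clathrin adaptor, was 1.87-fold higher (0.90), and FRQ1, an activator of the Golgi phosphatidylinositol kinase, was higher (0.57). The clathrin heavy chain gene CHC1 (−0.40) and the lipid phosphatase gene SAC1 (−0.39) were lower, with adjusted p up to 0.066 and 0.057 when single arrays were left out. Over these 148 genes the Spearman correlation of change and length was −0.55.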

How the data were processed

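The authors deposited a log2 intensity for each of 6227 probes on each of 6 Cy3-labelled Agilent yeast arrays. The scale was read from the values (5.29 to 15.88), and the columns have nearly one distribution, so every change is relative to other genes. Per the submitters' processing notes, R 2.14.2 and limma were used. How background, normalization and filters were handled is not given in the sources used here. Of the probes, 4061 had 1 gene symbol in the platform annotation, 0 had several and 2166 had none. The 2 probes of FDH2 were averaged. Names were updated, and lengths taken, through the R64 gene table.

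The limma package (3.58.1, under R 4.3.3; lmFit, then eBayes) was used to fit strain means over the 6 arrays, and two-sided tests had Benjamini-Hochberg adjustment over 6226 features and a threshold of 0.05. The fit was tested on simulated data. The number of arrays, 3 per strain, limits precision. Of the 2 slides, the first carried wine replicate 2 beside flor replicate 3, and the other carried the remaining 4 arrays. Alternatives were other normalizations and centrings, filters on dim features, a trended robust prior, array weights, slide or replicate number as a block, slide 2 alone, each array left out, removal of a length trend (loess, span 0.5, on deviations that include the strain difference), an adjusted p under 0.01, and named genes only.

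Every gene of the rule is named. Values per array are given for those with a call and a change of at least 0.5, for SAR1, YPT1, SED5, KAR2, IRE1, SEC61, SEC23, SEC18 and SEC4, and for the paralogs EMP46 and EMP47. Up to 4 called genes with the largest changes are named from each further list. COP1 and the pairs of partners were chosen with their values in view. The members and lists were chosen with earlier results of these data known, and no set test was made.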

Additional observations from a re-analysis of the deposited data

How the results depend on the processing

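Quantile normalization, both centrings, the intensity trend with robust prior, array weights, slide as a block and removal of the length trend left each count of secretory, further pathway and all features within 1.5 times the value given. The counts of secretory genes higher and lower were 3 and 7 on slide 2 alone and 6 and 10 at an adjusted p under 0.01, and 11 were lower without the dimmest 50% of features. For the further pathway genes they were 12 and 15 on slide 2 alone, 14 and 16 at the stricter threshold, and 17 lower without the dimmest 50%. For all features they were 701 and 723 on slide 2 alone, 841 and 920 at the stricter threshold, 705 and 838 without the dimmest 50%, and 811 higher among named genes only. Fewer arrays or features enter several of these fits. With single arrays left out, 7 to 15 secretory genes were higher and 11 to 24 lower, 15 to 30 and 20 to 35 further genes, and 966 to 1502 and 1074 to 1777 features. The median change of the secretory genes was −0.045 on slide 2 alone and −0.026 with the length trend removed, and −0.022 to 0.0080 with single arrays left out. Slide 2 alone, with 2 arrays per strain, lost 22 of the 32 calls and gained 0 by limma. The replicate block gave 16 higher and 21 lower. Deviations of same-numbered arrays correlated at 0.37, 0.23 and 0.05, so the numbers were not taken to pair the cultures, and flor replicate 3 correlated best with wine replicate 2. Sign changes occurred only in genes without a call. With the length trend removed these were ERV25 (−0.019), RET3 (−0.051), SEC10 (0.00034), SEC14 (−0.0029), SEC26 (0.0081), SED5 (−0.026) and YPT1 (−0.11). On slide 2 alone they were SEC14 (−0.032) and SEC9 (−0.045), and with array weights SEC26 (0.0053) and YPT1 (−0.087). With single arrays left out, the changes ran from −0.099 to 0.16 for YPT1, −0.18 to 0.049 for SEC26, −0.050 to 0.12 for SEC9, −0.022 to 0.17 for SEC14, −0.018 to 0.095 for SED5, −0.20 to 0.015 for SEC10 and −0.0080 to 0.078 for SEC2. The cause of these sign changes was not tested. No detection calls were used, so SEC1, SEC12 and IRE1, in the lowest 25% of features by mean signal, may have understated changes.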
